A study of Mus musculus with 2 samples.

Results

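The genes described here belong to the ATF4 arm of the integrated stress response. A list of 10 was set, Atf4 itself with Ddit3, Trib3, Chac1, Asns, Psat1, Phgdh, Shmt2, Mthfd2 and Sesn2, and members were taken as the rows of the expression table whose Ensembl identifier carries one of these symbols. Of the 10666 genes of the table, 6 are members: Ddit3, Asns, Phgdh, Psat1, Mthfd2 and Sesn2. The other 4 (Atf4, Trib3, Chac1 and Shmt2) were not analysed here, so nothing is said about the transcript of the transcription factor itself.

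The cells came from neurospheres, the floating balls that neural stem cells and progenitors form in culture, made from wild-type C57BL/6 mice at embryonic day 14.5 with the dorsal telencephalon as the tissue. Both cultures were kept in DMEM-F12 with B27 lacking retinoic acid, N2, added glucose, and EGF and bFGF at 10 ng/ml each, and were profiled by droplet single-cell RNA-seq (10x Genomics, with a kit version on which labels and methods differ). There was 1 condition with 2 replicate cultures, no stressor was applied, and no label says whether the cultures came from separate litters. No test between groups was possible, and values are given for each culture or, where said, as the lower value of the 2. Culture 1 held 5748 cells with a median of 19477 total UMIs (unique molecular identifiers, 1 per captured RNA molecule), and culture 2 held 7057 cells with a median of 14637. A barcode that occurred in both cultures was found 48 times. Detection differed among the 8 progenitor markers with a row. Nes was detected in 93.3% and 89.8% of cells and Slc1a3 in 92.1% and 94.0%. Fabp7 (100% and 99.96%) and Vim (99.2% and 99.9%) were also widespread. Sox9 was detected in 74.3% and 45.02%, Hes1 in 44.5% and 50.5% and Notch1 in 47.3% and 37.0%. Pax6 was the least detected of the 8, in 21.1% and 23.1% of cells. Olig2, a factor of ventral and oligodendrocyte-lineage progenitors, was detected in 97.3% and 91.9% of cells. Other markers of oligodendrocyte progenitors were Cnp (48.7% and 31.6%), Cspg4 (11.8% and 13.7%), Pdgfra (8.77% and 1.81%) and Sox10 (4.26% and 0.751%). Of the neuronal genes, Map2 was detected in 77.7% and 63.6%. Dcx was detected in 7.34% and 1.56%, Rbfox3 in 3.78% and 4.31% and Gad1 in 3.25% and 0.709%.

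Cells that run short of amino acids, haem or folding capacity, or that sense virus RNA, phosphorylate the translation factor eIF2. Most translation falls, while translation of the Atf4 messenger rises, and the ATF4 protein then switches on genes for amino acid uptake and synthesis, for charging of transfer RNAs and, when stress lasts, for growth arrest and death. Because ATF4 is controlled largely through translation and protein stability, its targets are the usual way to read this response from RNA. Proliferating cells use the same targets for serine and one-carbon metabolism, which feeds nucleotide synthesis.

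ATF4 acts with C/EBP-family partners on a short composite element. Its core letters, TGATGNAA, were searched on both strands of the RefSeq promoters (250 bases before to 50 bases after the gene start, GRCm38.p6), with no other motif searched. They occur in 3.97% of all 32851 promoters, and 4.51% of the 27025 genes with a promoter hold them. The counts that follow are of genes. All 10 listed genes matched a promoter, and 3 of them hold the letters: Asns, Chac1 and Trib3. For the other 7 this says only that these letters are not in this window. Among the 36 further ATF4 targets of a list given below, 30 matched a promoter and 10 of these hold the letters. Of the aminoacyl-tRNA synthetases only 66.7% matched a promoter, so a share over that list is void, but Gars, Tars, Aars, Yars and Iars hold a match. The stretches below show the element in Asns, in Chac1, which is listed but was not analysed, and in 4 genes that, as described below, followed the members across cells. These 4 genes were picked for having both traits, so their pairing is not a result. Each stretch reads 5′ to 3′ on the strand of the gene, and capitals mark the match, which is in the reverse orientation in all but Asns.
Asns (chr6:7693205-7693252, minus strand): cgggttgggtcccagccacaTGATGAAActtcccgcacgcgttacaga
Chac1 (chr2:119351029-119351076, plus strand): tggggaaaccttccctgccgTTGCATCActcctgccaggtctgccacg
Pck2 (chr14:55540143-55540190, plus strand): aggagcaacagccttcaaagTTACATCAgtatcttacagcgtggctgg
Gars (chr6:55037951-55037998, plus strand): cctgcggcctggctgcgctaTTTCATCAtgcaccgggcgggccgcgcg
Tars (chr15:11399646-11399693, minus strand): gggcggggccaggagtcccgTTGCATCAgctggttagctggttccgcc
Aars (chr8:111033710-111033757, plus strand): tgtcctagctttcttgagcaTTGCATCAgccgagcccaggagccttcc

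All 6 measured members were present in both cultures without any applied stress. The deposited values are linear and scaled to the depth of each cell. Within a culture, the nonzero values of a gene are close to whole numbers, raised to a fitted power near 1, times 1 step for that gene. They are divided by a factor of the cell, so UMIs could be estimated for each member. At least 84.8% of the low nonzero values of a member lay within 0.1 of a step from a whole number. Some values rounded to no UMI: Ddit3 in culture 2 was above 0 in 20.01% of cells and had a UMI in 19.2%. Summed over the genes where this share was at least 80%, estimated UMIs made up a median of 31.2% and 32.9% of the total UMIs of a cell. The step of a gene differed between the cultures, by a factor below 0.684 or above 1.78 for the outer 10% of genes, and its origin is not given in the sources used here. Levels are therefore given as estimated UMIs per 10000 total UMIs, and genes are not ranked against each other. A background from free RNA was not estimated, so a value above 0 is read as a detection and not as expression by that cell.

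Ddit3 (chr10:127290774-127296288, GRCm38, as are the positions that follow), which encodes CHOP, the transcription factor tied to prolonged stress, was sparse. It had a value above 0 in 20.3% of cells of culture 1 (95% exact binomial interval 19.3% to 21.4%, counting error only) and in 20.01% of culture 2 (19.1% to 20.96%). That is 1507 and 1848 estimated UMIs in all, with at most 11 and 10 in 1 cell. Per 10000 UMIs the level was 0.127 and 0.167.

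The amino acid enzymes were detected more often. Asns (chr6:7675169-7693254), which makes asparagine, was above 0 in 62.2% and 50.1% of cells, at 0.619 and 0.593 UMIs per 10000. Phgdh (chr3:98313170-98339990), the first enzyme of serine synthesis from glycolysis, was above 0 in 92.4% and 90.3% of cells, at 2.90 and 2.25. Psat1 (chr19:15904678-15947337), the next enzyme of that path, was above 0 in 89.5% and 82.0%, at 1.49 and 1.38. All 3 were thus detected in fewer cells of the shallower culture, and Phgdh and Psat1 were seen in more than 80% of cells of either one.

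Mthfd2 (chr6:83305691-83325908), the mitochondrial folate enzyme that passes on the one-carbon unit taken from serine, was above 0 in 59.4% and 54.1% of cells, at 0.658 and 0.720 UMIs per 10000. Sesn2 (chr4:132492032-132510501), a leucine-binding restraint on mTORC1 and a target of both ATF4 and p53, was above 0 in 39.2% and 31.5%, at 0.299 and 0.290. For a common depth of 10000 UMIs, the 353 and 635 cells below it were left out. The estimated UMIs of each other cell were taken as thinned to that depth. The expected share of these cells with a UMI was then 11.0% and 13.3% for Ddit3, 41.5% and 38.8% for Asns, 88.2% and 83.8% for Phgdh, 74.3% and 71.4% for Psat1, 41.9% and 43.3% for Mthfd2 and 24.0% and 22.6% for Sesn2. The gap between the cultures was thus narrower at the common depth for Asns, Psat1, Mthfd2 and Sesn2 and wider for Ddit3 and Phgdh.

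**Figure D1:**
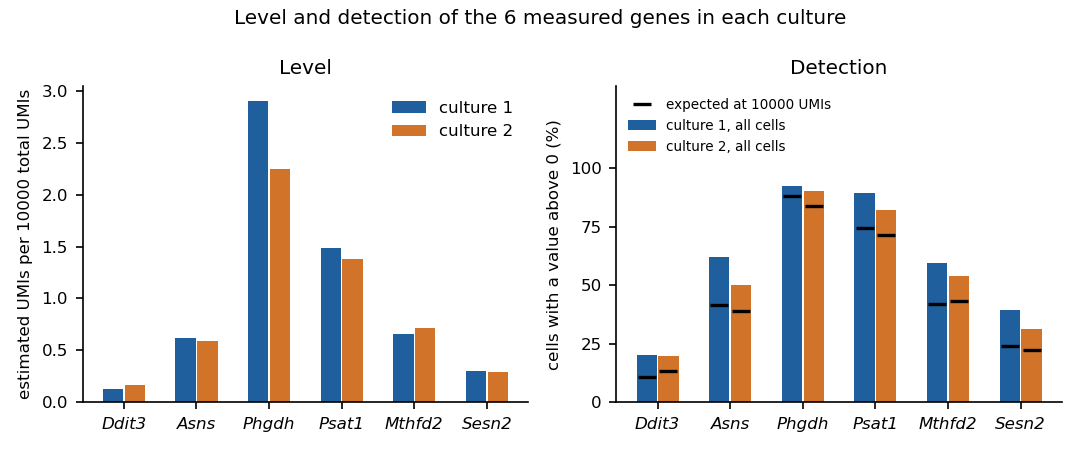
Left, estimated UMIs per 10000 total UMIs for each measured gene (bars, blue culture 1 and orange culture 2). Right, the percentage of cells with a value above 0 (bars) and the share expected at a depth of 10000 UMIs (black marks). Detection ran from 20.01% for Ddit3 in culture 2 to 92.4% for Phgdh in culture 1, and the marks of the 2 cultures lie closer together than the bars for Asns, Psat1, Mthfd2 and Sesn2.

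No member was over 1.5-fold apart between the cultures, against 4.62% of all genes (3.12% higher in culture 1 and 1.5% higher in culture 2). By the deposited values the ratio of culture 1 to culture 2 was 1.12 for Ddit3, 1.36 for Asns, 1.29 for Phgdh, 1.12 for Psat1, 1.23 for Mthfd2 and 1.14 for Sesn2. For 9699 genes, at least 80% of the low nonzero values lay within 0.1 of a step from a whole number in both cultures. By estimated UMIs 23.2% of these were over 1.5-fold apart (3.99% of the same genes by deposited values). The ratio by estimated UMIs was 0.759 for Ddit3, 1.04 for Asns, 1.29 for Phgdh, 1.08 for Psat1, 0.915 for Mthfd2 and 1.03 for Sesn2. Ddit3 and Mthfd2 thus turn from higher in culture 1 to higher in culture 2, and with 1 culture on each side no direction is drawn from either.

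The next question was whether the members follow the cell cycle. Position is the authors' angle in radians from 0 to 2π around a plane of cell-cycle genes, computed from the same cells. By the study's methods the 2 cultures were aligned with Seurat when that plane was made. A place along it that both cultures share is therefore not independent between them. Each gene was fitted on log2(value + 1) with 2 harmonics of the position, and a gene counted as varying when R² was at least 0.05 in both cultures. Of the 6 members 1 did, Mthfd2, where 4.01% of all genes did. Its R² was 0.145 in culture 1 and 0.0726 in culture 2.

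Mthfd2 rose and fell once around the cycle. The maximum of its periodic loess line lay at 0.76π in culture 1 and at 0.775π in culture 2, and the minimum at 1.64π and at 1.69π. The line spanned 0.93 and 0.65 on the log2 scale. In culture 1 it was detected in 83.9% of the 992 cells between 0.75π and 1π and in 38.2% of the 1789 cells between 1.75π and 2π. The same bins of culture 2 gave 78.8% of 546 cells and 42.3% of 3149 cells. By the deposited Seurat stages, the mean log2 value was 1.28 and 1.08 in S, 1.12 and 0.98 in G2M and 0.59 and 0.65 in G1. By these stages Mthfd2 was lowest in G1 cells of both cultures, whereas by the deposited SchwabeCC stages it was lowest in G2.M cells (0.70 and 0.72, against 0.75 and 0.79 in M.G1). Total UMIs also followed the position (R² 0.0863 and 0.0875, line maximum at 0.875π and 0.865π), and with depth taken out R² for Mthfd2 was 0.133 and 0.0634. Among the other folate enzymes, Tyms, which makes thymidylate (0.369 and 0.231), and the cytosolic Shmt1 (0.134 and 0.0891) varied by the same rule. None of the 23 other ATF4 targets and none of the 21 synthetase genes did.

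Psat1 was just under the threshold, with R² of 0.0472 and 0.0348. Its line was highest later than that of Mthfd2, at 1.24π and 1.16π, and spanned 0.44 and 0.40. By Seurat stage its mean log2 value was highest in G2M, at 1.97 and 1.80, against 1.72 and 1.65 in S and 1.54 and 1.42 in G1. The first enzyme of the same path, Phgdh, had an R² of 0.0122 and 0.0102, and Asns one of 0.0020 and 0.0059.

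Sesn2 and Ddit3 had their line minimum where Mthfd2 was on its way up. The Ddit3 line spanned only 0.17 and 0.13, a range like that of Asns (0.11 and 0.17). Sesn2, with R² of 0.0305 and 0.0205, had its line minimum at 0.41π and 0.40π. Its mean log2 value was 0.35 and 0.29 in Seurat S cells, 0.56 and 0.43 in G1 and 0.52 and 0.50 in G2M. Ddit3, with R² of 0.0107 and 0.0073, had its minimum at 0.435π and 0.47π and a mean of 0.19 and 0.17 in S against 0.30 and 0.26 in G1. By the Seurat stages S cells had the lowest mean of both genes in each culture. This did not hold by the deposited cyclone stages, which call few S cells (133 and 56): Sesn2 was then lowest in G1 (0.46 and 0.40, against 0.50 and 0.52 in S), and Ddit3 in culture 1 was highest in S (0.27). Nor did it hold by the SchwabeCC stages (355 and 428 S cells), where both genes were lowest in G1.S. Sesn2 had 0.33 and 0.28 in G1.S against 0.51 and 0.45 in S. For Ddit3 these values were 0.17 and 0.16 against 0.27 and 0.25. Of the 15 p53 targets with a row, 3 varied by the rule: Ccng1 (R² 0.115 and 0.0981), Bax (0.0598 and 0.0638) and Cdkn1a (0.0515 and 0.119). The Sesn2 maximum differed more between the cultures (1.66π in culture 1, 1.18π in the other), and in culture 1 it fell in an arc with few cells (64 between 1.5π and 1.75π).

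**Figure D2:**
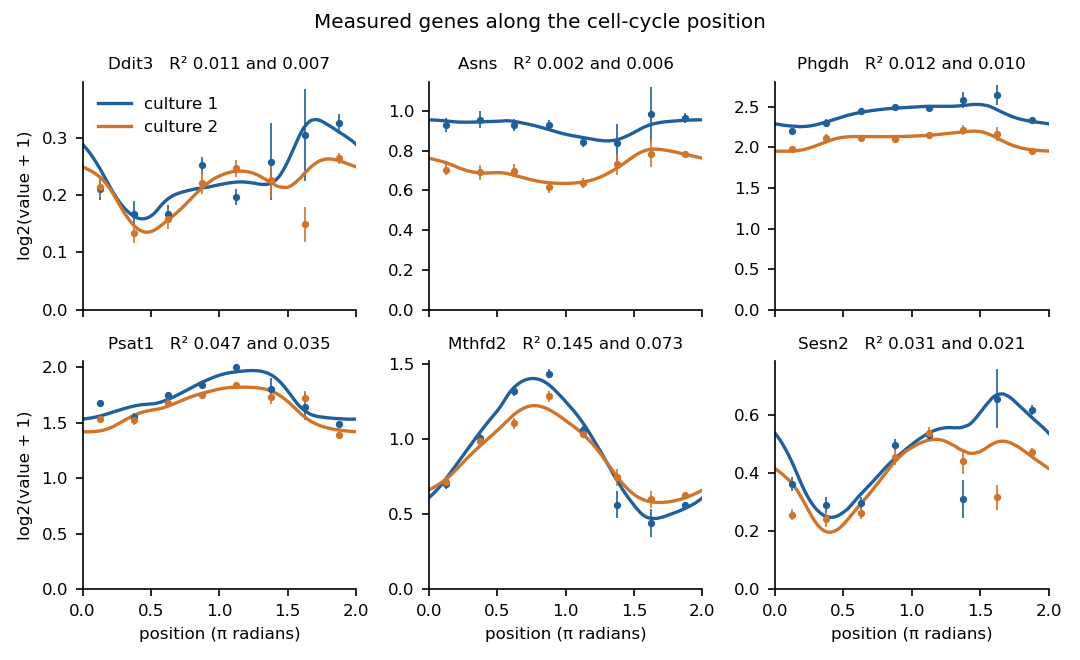
Each panel plots log2(value + 1) of 1 gene against cell-cycle position in units of π radians, with the periodic loess line and the mean of 8 equal bins (points, error bars 1 standard error over cells) for culture 1 in blue and culture 2 in orange. Mthfd2 has the widest line range, 0.93 and 0.65, with its maximum at 0.76π and 0.775π. Asns (0.11 and 0.17) and Ddit3 (0.17 and 0.13) have the narrowest.

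Members were then compared cell by cell. Pearson r of log2(value + 1) was taken across cells within each culture, and a pair counted when r was at least 0.1 in both. Cells of 1 culture share a library, a depth range and the authors' scaling, so each r is a description of that culture without a p-value. All 15 pairs had r above 0 in both cultures, from 0.0068 to 0.235. Of the 15 pairs 8 reached 0.1 in both, against 0.173% of all pairs of genes and 0.51% of the pairs among the 4774 genes detected at least as often as Ddit3. The median of the lower r was 0.106 over member pairs and -0.0060 over all pairs. These correlations are weak in size, and with a pseudocount of 0.1 or with Spearman's rho 4 of the 8 pairs stayed above 0.1, where 0.185% and 0.189% of all pairs of genes did.

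Asns was the gene most of the pairs had in common. Its r with Phgdh was 0.212 in culture 1 and 0.235 in culture 2, and with Mthfd2 0.208 and 0.234. With Psat1 it was 0.144 and 0.124, with Ddit3 0.142 and 0.132, and with Sesn2 0.106 and 0.112. Asns thus passed with all 5 other members. Taking out the position raised its r with Mthfd2 to 0.234 and 0.263, and taking out depth left it at 0.209 and 0.233.

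Phgdh with Mthfd2 (0.187 and 0.182) and Psat1 with Mthfd2 (0.136 and 0.143) also passed. Together with the pairs of Asns with Phgdh and Mthfd2 these are the 4 that held under both other settings. With position taken out the pair of Psat1 and Mthfd2 fell to 0.0850 and 0.109. Phgdh and Psat1, which catalyse consecutive steps of 1 pathway, had r of 0.0553 in culture 1 and 0.144 in culture 2 and did not pass.

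Ddit3 with Sesn2 (0.116 and 0.132) completed the 8. Both genes are at 0 in most cells, and this pair, like those of Ddit3 and Sesn2 with Asns, fell below 0.1 by Spearman's rho (lower values 0.0761, 0.0598 and 0.0628). Sesn2 and Phgdh were the least related pair, at 0.0068 and 0.0567. In culture 1 the mean deposited value of Asns was 1.92 in the 1168 cells with a Ddit3 value above 0 and 1.22 in the 4580 without it, a ratio of 1.57, and in culture 2 the ratio was 1.46 (1412 and 5645 cells). The same ratio was 1.34 and 1.501 for Mthfd2, 1.39 and 1.53 for Sesn2, 1.1498 and 1.161 for Phgdh and 1.07 and 1.102 for Psat1. Cells with Ddit3 also had more total UMIs, with medians of 21038 against 19131 and of 15676 against 14366, and the parts of depth and of free RNA in these ratios were not tested.

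**Figure D3:**
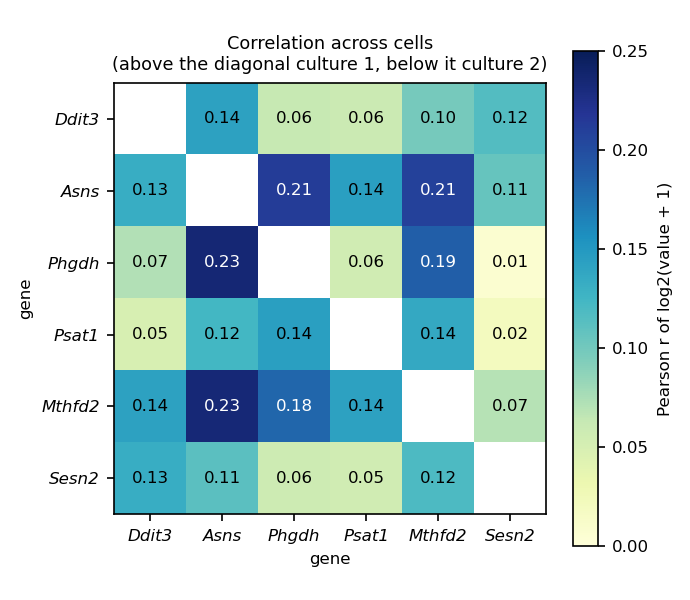
Pearson r of log2(value + 1) across cells for each pair of measured genes, with culture 1 above the diagonal and culture 2 below it and colour from 0 to 0.25. The darkest squares are Asns with Phgdh and Asns with Mthfd2, at 0.208 to 0.235, and the palest is Phgdh with Sesn2 in culture 1.

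To see which other genes follow the members, each gene was correlated with the member mean, the average of the z-scores of the 6 members in a cell. Of the 10660 other genes, 92 (0.863%) had r of at least 0.1 in both cultures. For each member against the mean of the other 5, the lower r was 0.312 for Asns, 0.267 for Mthfd2, 0.195 for Phgdh, 0.177 for Ddit3, 0.152 for Psat1 and 0.115 for Sesn2. The count of 92 was 43 with a mean that left Mthfd2 out, 52 without Psat1, 152 without Ddit3 and 46 with position taken out.

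Of the 20 genes with the highest lower r, 8 are on a list of other ATF4 targets, 6 on a list of cytosolic aminoacyl-tRNA synthetases, 1 on a list of eIF2 and its regulators and 5 on none. Of the 10666 genes of the table, these lists hold 23, 21 and 13. They were written with earlier results of these data known, so the overlap is a description and not independent support. All 20 stayed at or above 0.1 with depth or with position taken out. First were Slc3a2, the heavy chain shared by several amino acid transporters (0.293 in culture 1 and 0.313 in culture 2), and Pck2, the mitochondrial phosphoenolpyruvate carboxykinase whose promoter is printed above (0.291 and 0.347). Next came Eif2s2, the beta subunit of eIF2 (0.254 and 0.311), and Eif1, which guards the choice of start codon (0.259 and 0.249).

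Transporters and amino acid enzymes made up most of the ATF4 targets among the 20. Slc7a1, a carrier of arginine and lysine, had 0.236 and 0.234, and Slc7a5, which pairs with Slc3a2 to carry leucine, 0.188 and 0.221. Psph, the last enzyme of serine synthesis, had 0.198 and 0.234. Phgdh and Psat1, of the same path, are themselves part of the mean. The lower r of Psph was 0.148 with Phgdh and 0.027 with Psat1. Cth, which makes cysteine from cystathionine, had 0.194 and 0.318 although it was detected in only 5.24% and 3.73% of cells. Aldh18a1, of proline synthesis, had 0.183 and 0.181. Atf5, a transcription factor related to ATF4 and induced by it, had 0.225 and 0.224. The synthetases were Nars (0.246 and 0.295), Eprs (0.228 and 0.218), Gars (0.205 and 0.231), Sars (0.199 and 0.209), Cars (0.194 and 0.221) and Lars (0.201 and 0.188), which charge the transfer RNAs of asparagine, glutamate and proline, glycine, serine, cysteine and leucine.

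The 5 genes on no list were Eif1, Phf10, a subunit of a chromatin-remodelling complex (0.217 and 0.266), Bcat1, the cytosolic branched-chain amino acid transaminase (0.211 and 0.213), Cyb5r2 (0.253 and 0.191) and Anp32b, a histone-binding protein (0.183 and 0.197). Cyb5r2 was detected in only 1.305% and 1.134% of cells. Anp32b is itself cycle dependent, with R² of 0.347 and 0.240 along the position.

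Read list by list, the share of genes that passed differed. The lists were written with earlier results of these data known. Of the 23 other ATF4 targets with a row, 13 passed, with a median lower r of 0.134 against -0.0062 over all genes. Besides the 8 above these were Cebpg, a partner of ATF4 (lower r 0.158), Aldh1l2 (0.137), Slc7a11, the cystine carrier (0.136), Pycr1 (0.134) and Vldlr (0.114). At the other end lay the autophagy receptor Sqstm1 at 0.014 and Jdp2 at 0.029. Of the 21 genes on the synthetase list, which also holds the tRNA exporter Xpot, 11 passed, with a median of 0.116. Those that did not pass include Qars (-0.042), Farsa (-0.017) and Kars (0.023). The 5 targets from Cebpg to Vldlr and these low genes were named after their values were seen. With any 1 member left out of the mean, the ATF4 list gave 12 or 13 and the synthetases 10 to 13.

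The list for the ATF6 and XBP1 arms of the unfolded protein response, which run beside the arm that leads to ATF4, gave 0 of 16. With 0.863% of all genes passing, a count of 0 in a list of this size is near that background, and the same holds for the lists below that gave 0. These genes, targets and sensors that serve the folding capacity of the endoplasmic reticulum, had a median of -0.0016 and their highest lower r in the chaperone Hsp90b1 (0.030) and the disulfide isomerase Pdia6 (0.023). The count stayed at 0 in each single culture, with a pseudocount of 0.1, and with depth or position taken out. Of the 13 genes for eIF2, its kinases, its exchange factor and its phosphatase only Eif2s2 passed, with Eif2s1, the subunit that is phosphorylated, next at 0.085, and the 4 kinases lay between -0.014 and -0.0089. Transcript levels do not measure the activity of a kinase.

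Among the remaining lists, the mitochondrial stress genes gave 2 of 9, the chaperones Hspa9 (0.167 and 0.181) and Hspd1 (0.155 and 0.122). Heat shock gave 1 of 5, Hsp90aa1 (0.122 and 0.151), whose lower value was 0.079 with position taken out, with Hsp90ab1 next at 0.056. The folate enzymes gave 0 of 14, with Shmt1 (0.066) and Tyms (0.060) nearest. The p53 targets gave 0 of 15, with Bbc3 (0.099) and Cdkn1a (0.070) nearest. Cholesterol synthesis gave 0 of 14 (Sc5d 0.023, Msmo1 0.021), glycolysis and hypoxia 0 of 12 (Ldha 0.067, Hk2 0.059) and the immediate early genes 0 of 3 (Nr4a1 -0.013, Dusp1 -0.026). No marker of a cell type passed. Among the markers Olig2 had the most negative values, -0.122 and -0.087, and its part in the results was not tested.

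**Figure D4:**
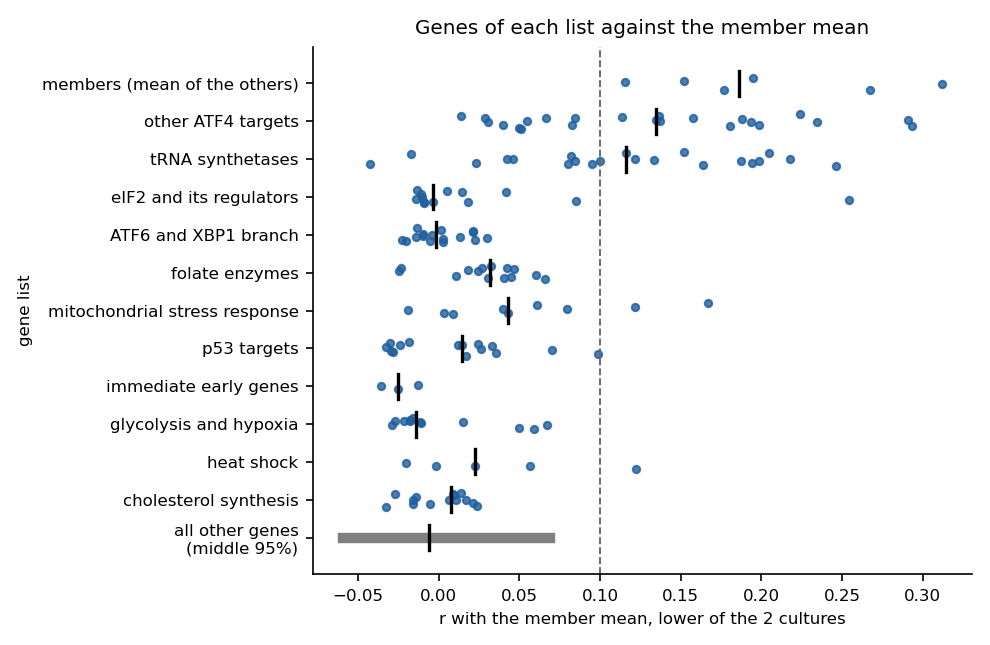
Each point is a gene, placed by its r with the member mean in the culture where r was lower, black bars are list medians, and the dashed line marks 0.1. The other ATF4 targets and the tRNA synthetases have medians of 0.134 and 0.116, right of the line, while the ATF6 and XBP1 branch lies left of it with all 16 genes, near the median of all other genes.

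The relation with these lists came from some members more than from others. Of the 20 genes, 19 reached 0.1 with Asns in both cultures, 16 with Mthfd2, 13 with Phgdh, 9 with Ddit3, 1 with Psat1 and 0 with Sesn2. Over all genes the share reaching 0.1 was 0.338% with Asns, 2.05% with Mthfd2, 0.788% with Phgdh, 0.103% with Ddit3, 0.806% with Psat1 and 0.141% with Sesn2. The wider list of ATF4 targets gave 11 of 23 with Asns, 6 with Ddit3, 6 with Mthfd2, 5 with Phgdh and 0 with either Psat1 or Sesn2. The synthetases gave 9 of 21 with Mthfd2, 8 with Asns, 5 with Phgdh and 2 with Ddit3. Since these genes were found through the mean that holds the members, the counts describe where that mean came from.

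The nearest genes of each member tell them apart. Ddit3 was closest to Cth (0.1498 and 0.193), Slc3a2 (0.147 and 0.158) and Asns. Asns was closest to Pck2 (0.232 and 0.272), and then to Phgdh and Mthfd2. Both thus had only genes of the ATF4 programme as nearest neighbours. Phgdh was closest to Ldha, lactate dehydrogenase A (0.365 and 0.213), then Asns and Eif2s2 (0.213 and 0.209). Phgdh was also related to depth in culture 1, with r of 0.267 with log2 total UMIs against 0.034 in culture 2, and with depth taken out its r with Ldha was 0.257 and 0.184.

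Psat1 and Mthfd2 stood nearest to genes of the dividing cell. For Psat1 these were Hmgb2 (0.206 and 0.189), Pclaf (0.198 and 0.177), which binds the replication clamp, and Cenpa (0.196 and 0.171), the centromeric histone. For Mthfd2 they were Anp32b (0.273 and 0.251), Hmgb2 (0.297 and 0.228) and Pclaf (0.334 and 0.223). With position taken out, r with Hmgb2 was 0.033 and 0.058 for Psat1 and 0.035 and 0.081 for Mthfd2, and r of Mthfd2 with Pclaf was 0.030 and 0.013. Anp32b kept 0.0950 and 0.159 with Mthfd2.

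Sesn2 followed p53 targets. Its 3 nearest genes were Cdkn1a, the cell-cycle inhibitor p21 (0.249 and 0.240), Bbc3, the death gene PUMA (0.233 and 0.172), and Ccng1, cyclin G1 (0.203 and 0.162). Of the 15 p53 targets with a row, 6 reached 0.1 with Sesn2 in both cultures, where 0.141% of all genes did. The further 3, named after their values were seen, were Trp53inp1 (0.191 and 0.136), Bax (0.138 and 0.128) and Pmaip1 (0.108 and 0.103). With position taken out, Cdkn1a had 0.222 and 0.211 and Bbc3 0.216 and 0.159, and Pmaip1 fell to 0.102 and 0.0956. None of the 15 reached 0.1 with any of the other 5 members, where the highest lower r was 0.098, of Bbc3 with Ddit3. Sesn2 therefore joined Ddit3 and Asns weakly on one side and p53 targets on the other.

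**Figure D5:**
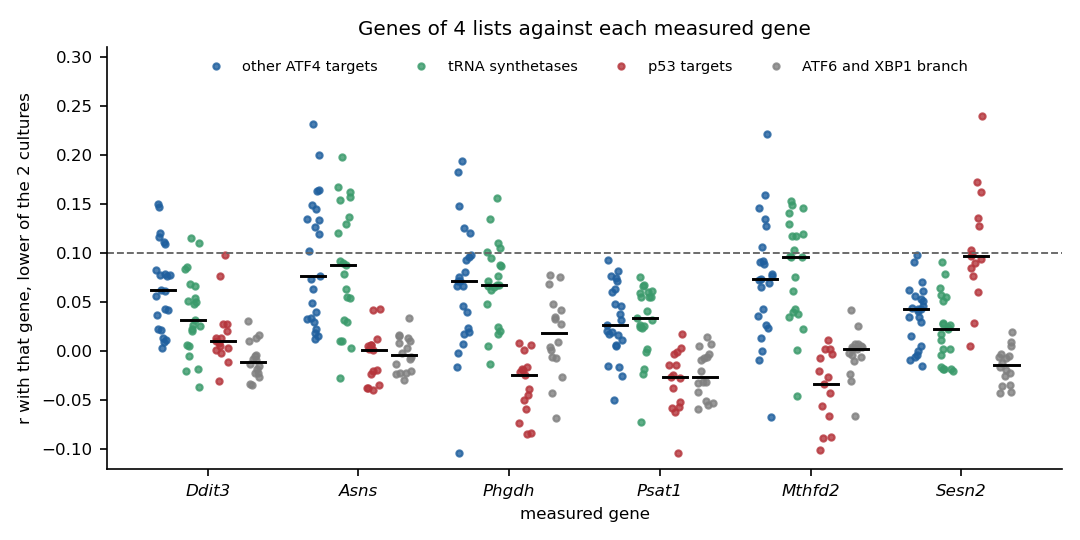
For each measured gene, the r with every gene of 4 lists in the culture where r was lower (points), with the list median (black bars) and a dashed line at 0.1. Points of other ATF4 targets and tRNA synthetases lie above the line for Asns, Mthfd2, Phgdh and Ddit3, and p53 targets lie above it only for Sesn2 among these 6 genes, where the highest is Cdkn1a at 0.240.

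The element printed at the start can be set beside these relations. Of the 92 genes that followed the member mean, 74 matched a promoter and 13 of these (17.6%) hold TGATGNAA, against 4.51% of the 27025 genes with a promoter and 2.48% of the 8433 genes of the expression table that matched one. The 13 include Pck2, Gars, Tars and Aars. Listed genes with the letters that did not pass include Iars (lower r 0.0996), Herpud1 (0.083), Slc1a4 (0.050) and Jdp2 (0.029). Of the 20 genes nearest to the member mean, 15 matched a promoter and 4 hold the letters. Slc3a2 (0.293) and Eif2s2 (0.254) do not. Among the 64 of the 92 genes on no list, 55 matched a promoter and 5 (9.09%) hold the letters. None of the 17 ATF6 and XBP1 genes with a promoter holds them. The same was true of the 14 folate, 14 p53 and 18 glycolysis and hypoxia genes with one. The eIF2 list had 1 of 12 and the immediate early genes 1 of 11. For lists of this size a count of 0 is near the shares of 4.51% and 2.48%. A match of 8 letters describes the sequence and does not show that ATF4 binds there.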

How the data were processed

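By the labels and the study's methods, the authors quantified spliced counts with Alevin (Salmon 1.3.0) on GRCm38, removed outlying cells and doublets by their own filters, and removed mitochondrial genes. The deposited expression values are a signal, linear and scaled to cell depth. Total UMIs per cell are the authors' sums of estimated counts. The authors' per-cell table also gives position and stages. All per-sample columns were mapped to a culture, and no further cell filter or doublet caller was applied.

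Values were used as log2(value + 1) in Python 3.11.15 (numpy 2.4.6, scipy 1.17.1). Each culture was fitted alone, and a gene or pair counted only where the lower value of the 2 cultures passed (R² 0.05, r 0.1, fold 1.5). Periodic loess lines used tripled data, span 0.3 and degree 2. Steps and UMIs were estimated from low values, and the scripts were tested on simulated data. Named genes are the members, the 20 genes nearest to the member mean, the 3 nearest to each member, and up to 5 of each list that passed, or otherwise the 2 highest. Members, lists and rules were chosen with earlier results of these data known. Promoters are from RefSeq, matched by symbol or synonym. The result of one gene of the folate list is not reported here.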

Additional observations from a re-analysis of the deposited data

How the results depend on the processing

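No paired analysis was possible because there is 1 group, and the replicate numbers name its 2 cultures. The count of member pairs (8) was 4 with a pseudocount of 0.1, 4 with Spearman's rho and 2 at an r threshold of 0.2, and each culture alone gave 8 to 11. The count of genes following the member mean (92) was 195 with a pseudocount of 0.1, 512 and 11 at r thresholds of 0.05 and 0.2, and 46 with position taken out. It was 152, 52 and 43 with a mean that left out Ddit3, Psat1 and Mthfd2, and 128 with culture 2 alone or 158 with culture 1 alone, where only that culture had to pass. The members varying with position (1) were 3 at an R² threshold of 0.02 and 0 at 0.1, and each culture alone gave 1. The members over 1.5-fold apart between cultures (0) were 2 (Asns and Phgdh) at the lower fold threshold tried. Unless a looser or stricter threshold or a single culture was the alternative, the cause was not tested. The lists of other ATF4 targets, synthetases and ATF6 and XBP1 genes stayed within 1.5 times their counts under all 11 alternatives run for each. With cells of shared barcodes left out, the counts were 8 pairs, 89 genes and 1 member. Shared barcodes, single cultures of the lists, estimated UMIs and means without a member were chosen after seeing the data. The mean place of the Sesn2 line maximum was 1.42π and became 1.76π at a loess span of 0.2. Ddit3 and Sesn2 had no value above 0 in most cells of either culture, which limits what their correlations can show.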

Other observations

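A few genes were related to the member mean in the opposite direction. With r of -0.1 or lower in both cultures there were 9, against 92 with r of 0.1 or higher, and all 9 are named here after their values were seen. They include 4 small subunits of respiratory chain complexes, Uqcrh (-0.161 and -0.205), Cox6a1 (-0.140 and -0.108), Cox6b1 (-0.127 and -0.111) and Cox6c (-0.115 and -0.125), and Atp5j2 of the ATP synthase (-0.102 and -0.109). The ribosomal proteins Rps29 (-0.114 and -0.104) and Rpl37a (-0.104 and -0.121) were the next group. Selenow, a selenoprotein, had -0.124 and -0.142, and Mxd4, a partner of MAX that opposes MYC, had -0.124 and -0.126. With position taken out, Mxd4, Cox6b1 and Atp5j2 no longer reached -0.1 in either culture. All but Mxd4 were detected in more than 99% of cells of both cultures. Each value of a cell is scaled to about the same sum, so genes with high values share that sum with all others, and its part in these correlations was not tested.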
